A study of Bos taurus with 46 samples.

Results

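Plasma was taken from 10 pregnant heifers on Day 24 of pregnancy (P24) and, 8 days earlier, on Day 16 (P16), and its small RNA was sequenced in 1 library per heifer and day. These 20 libraries were chosen from the 46 of the study by their column labels, which give the group and the number of the heifer, so that each P24 library was set against the P16 library of the same heifer. The labels give 11 such pairs, and the pair of heifer 28 was set aside because its P16 library had a low share of miRNA and was not used by the study. The remaining libraries of the study came from 8 non-pregnant heifers on Days 16, 8 and 0 of the oestrous cycle (NP16, NP8 and NP0), and they enter below only for the changes between NP16 and NP8 and for the differences between heifers. All were Holstein-Friesian heifers of 14 to 17 months from 1 farm, whose oestrus had been synchronised with a progesterone-releasing insert, buserelin and cloprostenol. The pregnant heifers were inseminated with frozen semen and had their pregnancy checked later by ultrasound, and the non-pregnant ones were sham-inseminated. The labels name no other treatment. Each also carries a running number that differs from library to library and whose meaning they do not give.

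miRNAs are short RNAs that guide the Argonaute proteins to messenger RNAs and lower their translation or stability. In plasma they are carried in vesicles and in complexes with Argonaute or lipoproteins, and most derive from blood cells, the vessel wall and the liver, with a smaller part from other organs and, in pregnancy, possibly from the conceptus. In cattle the conceptus elongates and secretes interferon tau near the earlier sampling day, which signals pregnancy to the mother, and it has begun to attach to the uterine lining by the later one. The interval between P16 and P24 therefore spans the step from maternal recognition of pregnancy to early attachment, and the comparison asks whether plasma miRNA levels moved over it. The roles named below for single miRNAs are known mostly from human and mouse.

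P24 libraries held 651408 to 5400386 miRNA reads (median 2.45e+06, n = 10) and P16 libraries 1907752 to 5440381 (median 2.25e+06, n = 10). miRNA made up 57.1 to 80.1% of the mapped reads in P24 and 60.9 to 73.1% in P16. Levels are given as RPMM, the reads of a miRNA per 1000000 mapped reads of its library. Of the 870 miRNA names in the tables, 214 passed the filter on low values, 209 of them bovine and 5 human names. In heifer 28 the P16 library held 33.1% miRNA, against 63.9% in the P24 library, and 175 of the 214 miRNAs lay below the lowest of the other 10 P16 libraries. Each heifer gave 1 library on each day, and all heifers were from 1 farm. The p-values between days are set against the spread of the change from heifer to heifer, which also holds library noise. Those for differences between heifers are set against the spread within heifers.

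No miRNA passed the test between P24 and P16. In the paired test (edgeR's quasi-likelihood test with the heifer as a block, Benjamini-Hochberg adjustment, FDR limit 0.1) 0 of 214 miRNAs passed, 0% of those tested, and the smallest adjusted p was 0.999. Without adjustment 0 miRNAs had a p under 0.05 in edgeR, against 2 in DESeq2, 0 in limma and 0 in an exact sign-flip permutation test, and none of these tools gave a call at the FDR limit. The ranges of P24 and P16 overlapped for every one of the 214 miRNAs tested, so that the count without overlap was 0, or 0%.

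The changes were also small where the test left room for them. The log2 fold change (P24 over P16) had a median of -0.01, a median absolute value of 0.08, and extremes of -0.37 and 1.0, and 200 of the 214 miRNAs lay within 0.25 of 0. It was positive for 99 miRNAs, or 46.3%, with TMM scaling, while the mean difference of log2(RPMM + 1) was positive for 139 of the 214 (median 0.05), so that counts of positive members are relative to the scaling. The 95% interval of the log2 fold change lay within a 2-fold change in either direction for 210 miRNAs (98.1%) and within a 1.5-fold change for 185 (86.4%). For these miRNAs an average change beyond that size lies outside the interval. Over the 214 miRNAs the median half-width of the interval was 0.29 on the log2 scale, and changes smaller than that could mostly not be detected with 10 heifers. The interval is not adjusted for the number of miRNAs, so larger changes could also be missed at the FDR limit. The intervals of 4 miRNAs reached beyond 2-fold: hsa-miR-3168, miR-133a, miR-122 and miR-181d. All 4 had positive fold changes of 0.40 to 1.0 on the log2 scale. The largest, hsa-miR-3168, was low, with means of 24.3 RPMM in P24 and 9.48 RPMM in P16, and its highest value of 136 RPMM was in the P24 library of heifer 24.

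**Figure D1:**
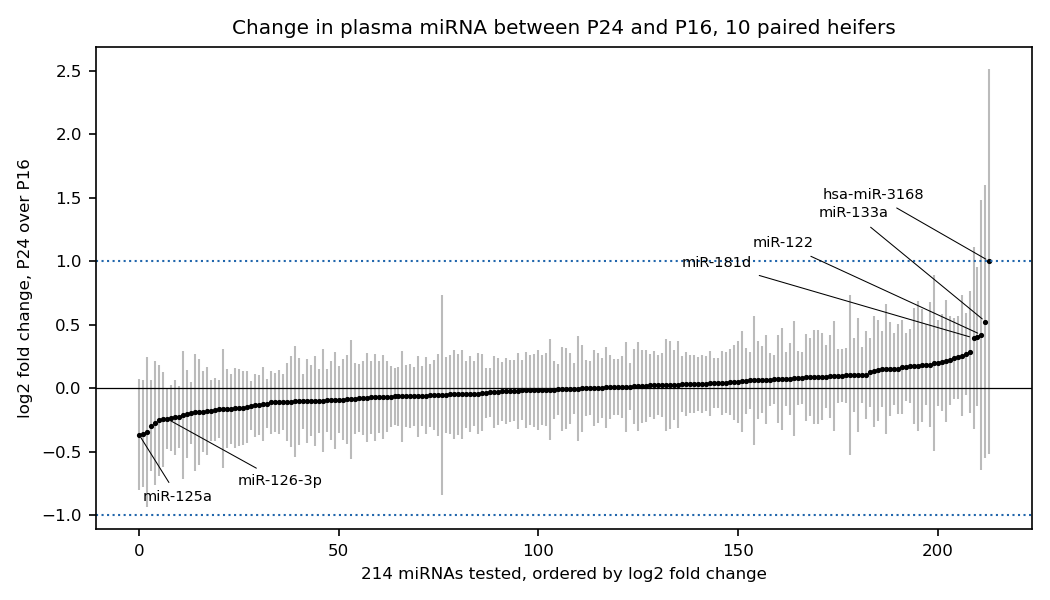
The log2 fold change of each of the 214 miRNAs (black points, P24 over P16, edgeR paired fit over 10 heifers) with its 95% interval (grey lines), ordered by size. The dotted lines mark a 2-fold change in either direction; 210 intervals lie between them, and every interval includes 0.

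Few miRNAs moved in the same direction in most heifers. A miRNA was higher on P24, or lower on P24, in at least 7 of 10 heifers for 32 of the 214 (15%) and in at least 8 for 3 (1.40%), counted on log2(RPMM + 1). These 3 were miR-215, miR-328 and miR-335, each lower on P24 in 8 heifers and higher in 2. No miRNA went one way in all 10 heifers, and none was higher on P24 in more than 7.

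The miRNA nearest to the threshold was miR-126-3p (chromosome 11, 108009438 to 108009458, UMD 3.1), which is made from an intron of EGFL7 in endothelial cells and is also abundant in platelets. Its level was 272 to 645 RPMM in P24 (median 411) and 305 to 752 RPMM in P16 (median 512). Most of the P24 range thus lay inside the P16 range, and 5 heifers were higher and 5 lower on P24. The log2 fold change was -0.24 (SE 0.11, 95% interval -0.48 to 0.00; edgeR, p = 0.0506, adjusted p = 0.999). The lower values came mainly from heifers 14, 24 and 31, with log2 differences of -0.89, -0.71 and -0.66, and its exact sign-flip p was 0.217. The partner strand miR-126-5p, also in the platelet list, had a log2 fold change of -0.06.

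miR-215, a miRNA of liver and gut epithelium, was next. It had 5525 to 17110 RPMM in P24 (median 11916) and 6333 to 22041 RPMM in P16 (median 14147), with overlapping ranges and 8 of 10 heifers lower on P24. Its log2 fold change was -0.23 (SE 0.11; edgeR, p = 0.0638, adjusted p = 0.999). The related miR-192, which shares its seed sequence and is also made in liver and gut, had 17402 to 62134 RPMM in P24 (median 35819) and 18102 to 53176 RPMM in P16 (median 35284). The log2 fold change of miR-192 was -0.02 (SE 0.11), so that the values of this abundant relative were centred on 0.

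Among the other 13 miRNAs with the smallest p, 9 had negative and 4 positive fold changes. miR-125a, listed below with the miR-125, miR-99 and miR-100 miRNAs, had the lowest log2 fold change of all, -0.37 (SE 0.21), with 165 to 659 RPMM in P24 (median 385) and 282 to 773 RPMM in P16 (median 470). miR-328 stood at 27.1 to 114 RPMM in P24 (median 73.0), a wider spread than the 68.5 to 111 RPMM of P16 (median 87.7), and its log2 fold change was -0.36 (SE 0.20). miR-484, a miRNA often used as a reference in blood, had the smallest exact sign-flip p, 0.0938 over the 10 heifers (adjusted p = 0.990), and a log2 fold change of -0.29 (SE 0.17). The remaining negative ones were miR-335, which lies within the imprinted MEST gene, miR-223 of myeloid cells and platelets, miR-200a of epithelia, miR-505, miR-1468 and miR-339b, between -0.23 and -0.14. The positive ones were miR-181b and miR-181a, which are abundant in lymphocytes, at 0.27 (SE 0.15) and 0.24 (SE 0.15), and miR-208b and miR-6120-3p, both of which were low. Without heifer 24 the value was -0.19 for miR-125a, -0.23 for miR-328, 0.13 for miR-181b and 0.11 for miR-181a. For all 15 of these miRNAs the P24 and P16 ranges overlapped.

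The most abundant plasma miRNAs had average changes close to 0. miR-486, an erythroid miRNA made from an intron of the ankyrin gene ANK1, had 80489 to 156735 RPMM in P24 (median 128725) and 74339 to 273005 RPMM in P16 (median 101845). Its mean was 124494 ± 28061 RPMM in P24 and 137630 ± 67261 RPMM in P16 (SD, n = 10 each), and its log2 fold change was -0.09 (SE 0.22), with 5 heifers higher and 5 lower on P24. The P16 values spread further, with 206803, 204885 and 273005 RPMM in heifers 11, 26 and 29 on P16. miR-22-3p, which is found in many tissues and in red cells, followed with 56272 to 102376 RPMM in P24 (median 77290) and 51903 to 102760 RPMM in P16 (median 78200), a log2 fold change of -0.03 (SE 0.09). The other 8 of the 10 most abundant miRNAs were miR-192, miR-30d, miR-191, miR-142-5p, miR-92a, miR-27b, miR-423-5p and miR-10b. Their log2 fold changes lay between -0.11 for miR-10b (SE 0.12), a miRNA within the HOXD cluster, and 0.09 for miR-27b (SE 0.10), which is made in vessel wall and other tissues.

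Red blood cells can break during sampling and release their miRNAs, and the ratio of miR-451 to miR-23a is a usual measure of this, since miR-451 is erythroid and miR-23a is not. The log2 ratio was 2.25 ± 0.51 in P24 and 2.27 ± 0.54 in P16 (SD, n = 10 each; two-sided exact sign-flip permutation test, p = 0.922, adjusted p = 0.959 over 26 library measures). miR-451 itself had 7069 to 14813 RPMM in P24 (median 9830) and 7150 to 14703 RPMM in P16 (median 9968). The erythrocyte list held miR-92a, both miR-16 forms, miR-144, miR-451 and miR-486, and all 6 had negative log2 fold changes, from -0.10 to -0.05 with a median of -0.08, against a median of -0.01 over the 214, and 0 of 6 passed the test. On log2(RPMM + 1) 4 of the 6 were negative, with both miR-16 forms at 0.01. Their summed share of miRNA reads was 24.7 ± 5.3% in P24 and 26.5 ± 9.9% in P16 (SD; exact sign-flip permutation test, p = 0.646). No other library measure passed the test: the smallest adjusted p over the 26 was 0.899.

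A closer look was given to miR-26a, which the study followed up in plasma, and to miRNAs that its PCR array had placed higher or lower in pregnancy. The array set P24 pools against the average of NP0, NP8 and NP16 and held no P16 pools. For miR-26a the study compared each pregnant day with non-pregnant plasma or with plasma taken before insemination. P24 against P16 is a different contrast, so the values below do not check those results. The array used pools of plasma from the same animals, so the lists are not independent evidence of a direction. miR-26a, a widely expressed miRNA that targets EZH2 among other genes, lies on chromosome 22 at 11464112 to 11464133 in the deposited annotation. It had 1955 to 13234 RPMM in P24 (median 6653) and 2564 to 7940 RPMM in P16 (median 5222). Both the highest and the lowest value of the 20 libraries were on P24, and 5 heifers were higher and 5 lower. The log2 fold change was 0.17 (SE 0.21, 95% interval -0.28 to 0.63; edgeR, p = 0.426, adjusted p = 0.999), and it was 0.03 without heifer 11 and 0.29 without heifer 14.

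Within single heifers miR-26a moved much further than this average. The log2 difference was 1.24 in heifer 11 and -1.42 in heifer 14. In heifer 11 the level was 13234 RPMM on P24 and 5600 RPMM on P16, and in heifer 14 it was 1955 RPMM on P24 and 5224 RPMM on P16. Heifers 10 and 29 had log2 differences of 1.09 and 1.11, and heifers 26 and 17 had 0.73 and 0.56. The other 4 heifers lay between -0.56 and -0.06. The within-heifer changes therefore pointed in opposite directions and nearly cancelled in the mean.

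miR-26c is listed at the same position on the opposite strand, and how reads were divided between the 2 names is not given in the sources used here. It had 1595 to 11803 RPMM in P24 (median 5196) and 1924 to 6633 RPMM in P16 (median 4114), a log2 fold change of 0.19 (SE 0.23), with the same heifers high and low. miR-26b, from chromosome 2, had a log2 fold change of 0.09 (SE 0.14), with 1017 to 4767 RPMM in P24 (median 2136) and 1094 to 3190 RPMM in P16 (median 2155).

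Of the array's higher miRNAs, 9 were tested, and all 9 had positive log2 fold changes, from 0.07 to 0.26 with a median of 0.10, against 46.3% positive and a median of -0.01 over all 214. On log2(RPMM + 1) all 9 were positive, with a median of 0.16, against 139 of the 214. None of the 9 passed the test. let-7f had the largest value, 0.26 (SE 0.22; edgeR, p = 0.267, adjusted p = 0.999), which was 0.12 without heifer 11 and 0.40 without heifer 24. The let-7 miRNAs restrain proliferation by acting on genes such as LIN28 and RAS. let-7f stood at 1103 to 5066 RPMM in P24 (median 2687) and at 1281 to 4168 RPMM in P16 (median 1996), and 6 heifers were higher on P24. miR-30c, from a family expressed in many tissues, was at 0.13 (SE 0.21). miR-103, which lies in a pantothenate kinase gene and acts on insulin signalling, was at 0.08 (SE 0.10).

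In 8 of the 10 heifers at least 8 of these 9 miRNAs lay on the same side, and in heifers 12 and 24 they were split. All 9 were higher on P24 in heifers 10, 11, 17 and 29, and 8 of 9 in heifer 26. None was higher in heifers 14 and 31, 1 of 9 in heifer 32, 3 in heifer 24 and 4 in heifer 12. The median log2 difference of the 9 ranged from 1.07 in heifer 10 to -0.89 in heifer 14. Over all 214 miRNAs, the number higher on P24 was 120 in heifer 10, 88 in heifer 11, 160 in heifer 17, 152 in heifer 29 and 114 in heifer 26. It was 46 in heifer 14, 35 in heifer 31, 168 in heifer 32, 122 in heifer 24 and 79 in heifer 12. The 9 miRNAs thus went with a clear majority in heifers 14, 17, 29 and 31 and against the majority in heifers 11 and 32. The 9 include near-identical relatives (let-7d and let-7f, miR-26a and miR-26b, miR-30b-5p and miR-30c), which may share reads and are not separate observations. The list was given by the study and includes miR-26a, whose animal values are those above.

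**Figure D2:**
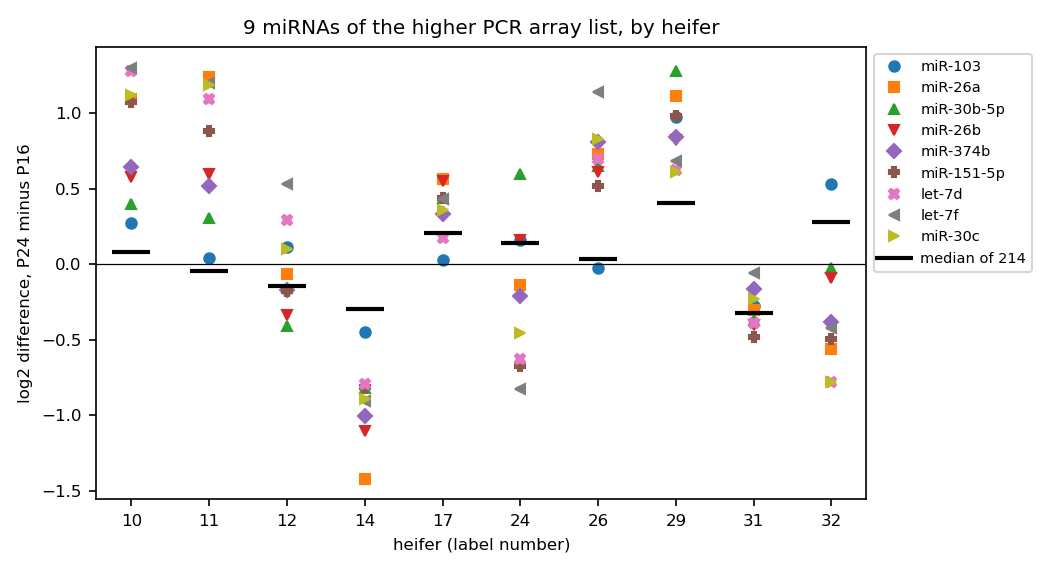
The log2 difference (P24 minus P16, log2(RPMM + 1)) of each of the 9 miRNAs of the higher array list in each of the 10 heifers; the black bar is the median of the 214 miRNAs of that heifer. The 9 symbols lie together above 0 in heifers 10, 11, 17 and 29, together below 0 in heifers 14 and 31, and are spread in heifers 12 and 24.

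Of the array's lower miRNAs, 5 were tested, 2 had positive and 3 negative log2 fold changes, and the median was -0.00. miR-101, which like miR-26a acts on EZH2, had 5572 to 13414 RPMM in P24 (median 6973) and 5327 to 12342 RPMM in P16 (median 7733), a log2 fold change of -0.00 (SE 0.16). The farthest from 0 was miR-141 of the epithelial miR-200 family, at -0.13 (SE 0.11). miR-1249, another candidate of the study, was too low to be tested.

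The let-7 family as a whole had 9 of 10 members with positive log2 fold changes and a median of 0.10, and 0 of 10 passed the test. The least moved were let-7a-3p at -0.02 and let-7e at 0.01. All 3 miR-26 miRNAs were positive (median 0.17), as were 4 of 6 miR-30 miRNAs (median 0.07) and 2 of 3 miR-29 miRNAs (median 0.01). In the family of miR-100 and its relatives (miR-99 and miR-125) 1 of 5 was positive, with a median of -0.15. Its members miR-125b at -0.18 (SE 0.15) and miR-99b at -0.15 (SE 0.13) lay on the same side as miR-125a, and miR-100 was at 0.00. On log2(RPMM + 1) all members of the let-7, miR-26, miR-30 and miR-29 families were positive, as was 1 of 5 in the list with miR-100. No member of any of these families or of that list passed the test.

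No member of the following groups passed the test either. The imprinted Dlk1-Dio3 cluster, whose miRNAs are abundant in embryo and placenta, had 12 members tested of 55 in the tables. Of these 8 were positive, the median was 0.03, and the most abundant, miR-127, a maternally expressed miRNA that acts on RTL1, was at 0.01. Of 6 tested miRNAs linked to pregnancy in other species 4 were positive, with a median of 0.01. The miR-2284 and miR-2285 miRNAs of ruminants, whose many near-identical copies may share reads, had 5 of 10 positive and a median of 0.01. In the miR-17-92 family, known for promoting proliferation, 5 of 12 were positive (median -0.01). All 4 epithelial miRNAs tested (miR-141, miR-200a, miR-429 and miR-205) were negative, with a median of -0.15, while on log2(RPMM + 1) 3 of the 4 were. miR-200a was the lowest of them at -0.17 (SE 0.11), with 143 to 456 RPMM in P24 (median 322) and 182 to 583 RPMM in P16 (median 304).

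The blood cell and vessel wall lists were likewise without a call. Of 8 platelet miRNAs 3 were positive (median -0.08), of 10 leukocyte miRNAs 6 (median 0.03), of 7 immune response miRNAs 5 (median 0.05), and of 7 mesenchymal and vessel wall miRNAs 1 (median -0.07). miR-150, a miRNA of mature lymphocytes, had the lowest value of the leukocyte list, -0.34 (SE 0.28), with 2463 to 9944 RPMM in P24 (median 4207) and 3349 to 13637 RPMM in P16 (median 5835). miR-155, which is induced in activated immune cells, was at 0.21 (SE 0.23), with 73.7 to 739 RPMM in P24 (median 180) and 104 to 284 RPMM in P16 (median 151). In plasma, fewer cells releasing a miRNA and less miRNA released per cell cannot be told apart.

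The muscle miRNA miR-133a differed most between the days in 2 heifers. miR-133a, which is specific to skeletal and heart muscle, had 27.3 to 1150 RPMM in P24 (median 51.4) and 23.2 to 163 RPMM in P16 (median 56.3). In heifer 24 it was 1150 RPMM on P24 and 67.8 RPMM on P16, and in heifer 10 it was 427 RPMM on P24 and 29.2 RPMM on P16. In the other 8 heifers P24 values were at most 139 RPMM, inside the P16 range, and the group medians were close. Their log2 differences ran from -1.09 in heifer 29 to 1.17 in heifer 14. The log2 fold change was 0.52 (SE 0.50, 95% interval -0.55 to 1.60; edgeR, p = 0.315, adjusted p = 0.999), with 5 heifers higher and 5 lower. It was 0.19 without heifer 24 and 0.75 without heifer 29. The study reported lower miR-133a reads in pregnant than in non-pregnant heifers, a different contrast, without significance after FDR adjustment. It could not detect miR-133a by qPCR, so the sequencing values were not checked by a second method.

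The cardiac and slow-muscle miRNA miR-208b was low and had its largest log2 differences in the same heifers, 1.66 in heifer 10 and 1.81 in heifer 24. All 3 muscle miRNAs tested of 7 in the tables (miR-133a, miR-208b and miR-499) had positive log2 fold changes, with a median of 0.41, and 0 of 3 passed. Among the other libraries of the study, miR-133a was 658 RPMM in the P16 library of heifer 28 and up to 1179 RPMM in NP16 and 2915 RPMM in NP8, so that such values were not confined to P24. miR-122, specific to hepatocytes, had the third wide interval, with 2.01 to 140 RPMM in P24 (median 28.1) and 2.28 to 109 RPMM in P16 (median 22.4). It did not move with miR-133a: its log2 difference was -2.84 in heifer 24 and -1.37 in heifer 10.

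**Figure D3:**
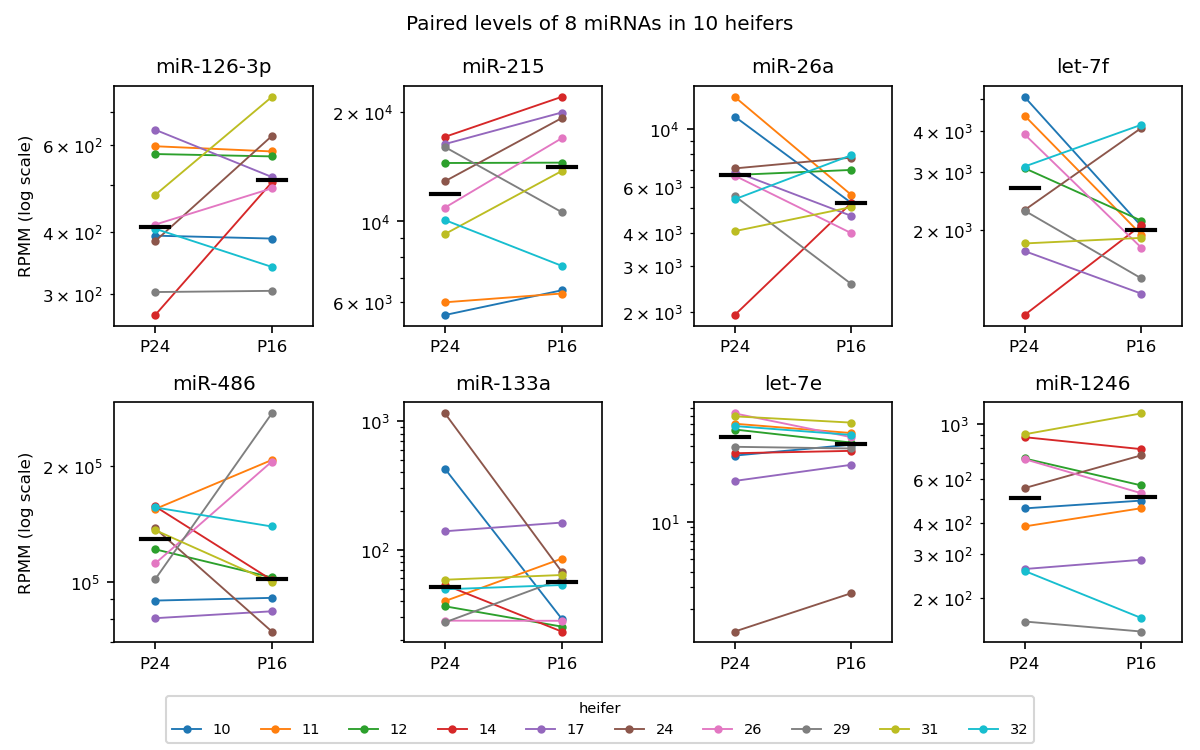
Levels of 8 miRNAs (RPMM, log scale) in the 10 heifers on P24 (left) and P16 (right); lines join the libraries of a heifer and black bars are group medians. The lines cross in both directions for miR-26a, let-7f and miR-486, 2 heifers stand out on P24 for miR-133a, and for let-7e and miR-1246 most heifers keep their place.

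The amount of change differed between heifers. After the median shift of each heifer was removed, 44 of 214 miRNAs (20.6%) differed more than 2-fold between P24 and P16 in heifer 24, of which 25 were higher and 19 lower on P24, and 27 (12.6%) did so in heifer 29. In the other 8 heifers the number was 2 to 12. The median absolute log2 change was 0.52 in heifer 24 and 0.43 in heifer 29, against 0.17 to 0.29 in the others. The libraries of heifer 24 held 80.1% miRNA on P24 and 64.5% on P16, and those of heifer 29 65.7% on P24 and 70.8% on P16. The part of these differences in the changes was not tested. The deviations of the P24 and P16 libraries from their group means correlated least in these 2 heifers, at 0.14 in heifer 24 and -0.19 in heifer 29. In the other 8 heifers this correlation was 0.18 to 0.84.

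The miRNAs and lists named here for these 2 heifers were picked after their values were seen. In heifer 24 the lymphocyte miRNA miR-181a stood at 34000 RPMM on P24 and 10179 RPMM on P16, a log2 difference of 1.74. miR-181b, miR-181c, miR-181d and miR-155 were also higher on P24 in this heifer, with log2 differences of 1.72, 2.42, 3.85 and 2.30, while miR-125a was lower by a log2 difference of -1.81. The share of leukocyte miRNAs was 11.1% in this library, against 4.95 to 8.09% in the other 19, and its log2 ratio of miR-451 to miR-23a was 3.54, the highest of the 20. Of the leukocyte list 8 of 10 miRNAs were higher on P24 in this heifer (median log2 difference 0.72), while miR-23a (-0.90) and miR-27a-3p (-0.35) were lower. All 6 of the erythrocyte list were higher as well (median 0.97), as were 12 of 12 in the miR-17-92 family (1.01). Over all 214 miRNAs 122 were higher (median 0.14). In heifer 29 miR-486 was lower on P24, at 101570 RPMM against 273005 RPMM on P16, and miR-150 had a log2 difference of -2.47. In heifer 24 miR-486 moved the other way, with a log2 difference of 0.89. The erythrocyte share of heifer 29 was 20.7% on P24 and 46.1% on P16. Leaving out heifer 24 gave 0 calls and 3 miRNAs at an unadjusted p under 0.05, and leaving out heifer 29 gave 0 calls and 1 (edgeR).

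**Figure D4:**
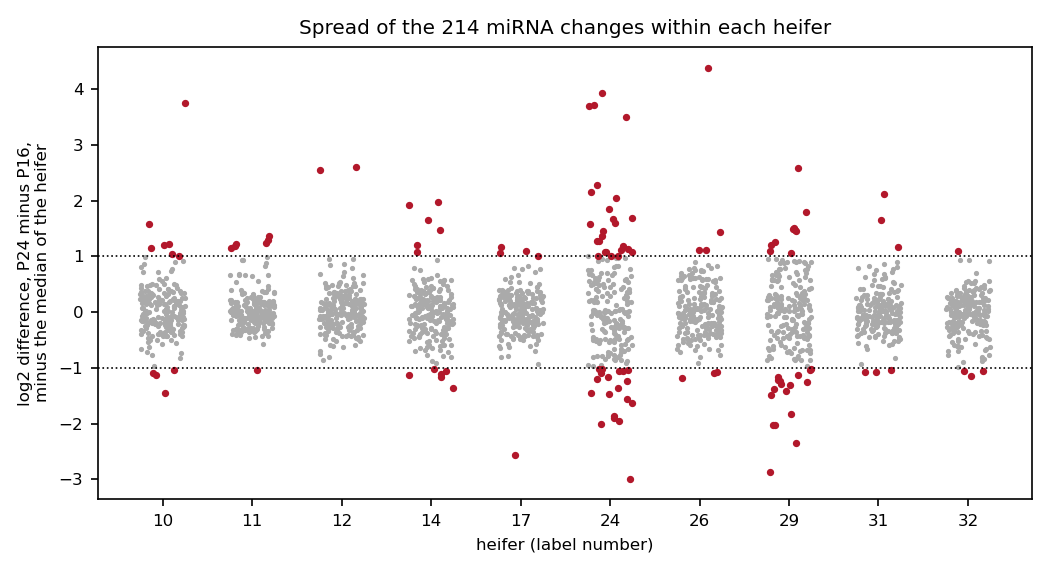
The log2 difference (P24 minus P16) of each of the 214 miRNAs in each heifer after subtraction of the median of that heifer; red points lie beyond a 2-fold change (dotted lines). Heifers 24 and 29 have 44 and 27 red points, and the other heifers 2 to 12.

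Many miRNAs differed between heifers. With the day in the fit, 70 of 214 miRNAs (32.7%) differed between the 10 pregnant heifers over P24 and P16 (edgeR's quasi-likelihood test of all heifer terms, FDR limit 0.1). This test was added after the data had been seen. It depended on heifer 11, without which 28 miRNAs passed, and leaving out any other heifer gave up to 89. In the 8 non-pregnant heifers over their 3 days 42 miRNAs (19.6%) differed between animals. The 2 sets shared 26 miRNAs, 37.1% of those of the pregnant heifers and 61.9% of those of the non-pregnant ones. Over the 214 miRNAs, the median share of variance that lay between heifers was 33.9% in the pregnant and 28.9% in the non-pregnant ones, on log2(RPMM + 1). Libraries of 1 heifer had a median distance of 0.24 (0.17 to 0.52, n = 10 pairs), against 0.36 for P24 and P16 libraries of different heifers (n = 90), where the distance is the median absolute log2 difference over the 214 miRNAs after centring.

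In the pregnant heifers the miRNA with the largest share between animals was let-7e (chromosome 18, 57588172 to 57588192, UMD 3.1), at 95.8% in the pregnant and 91.5% in the non-pregnant heifers. It had 1.33 to 73.0 RPMM in P24 (median 46.9) and 2.69 to 61.7 RPMM in P16 (median 41.9). Both lowest values came from heifer 24, and the next lowest heifer had 21.1 RPMM on P24 and 28.4 RPMM on P16. The miRNAs on either side of it on the chromosome, which belong to the same cluster, stayed far above such values in heifer 24: miR-99b (57588003 to 57588024) had 495 RPMM on P24 and 936 RPMM on P16, and miR-125a (57588678 to 57588700), although lower there on P24, had 220 RPMM on P24 and 773 RPMM on P16. Non-pregnant heifer 22 showed the same pattern, with let-7e at 1.40 to 3.21 RPMM in its 3 libraries, miR-99b at 503 to 912 RPMM and miR-125a at 338 to 463 RPMM. The next were miR-1246, with 92.5% of the variance between pregnant heifers, miR-2419-5p with 86.6% and miR-2415-3p with 85.7%. These 3 had 84.0%, 89.7% and 97.8% between the non-pregnant heifers. miR-1246 spanned 160 to 909 RPMM in P24 (median 505) and 146 to 1104 RPMM in P16 (median 509). Its log2 fold change was 0.00 (SE 0.13). Heifer 29 was the lowest and heifer 31 the highest on both days.

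miR-215, although near the threshold between days, had 78.5% of its variance between the pregnant heifers and 81.9% between the non-pregnant ones. For the epithelial miRNAs miR-141 and miR-200a the share was 77.4% and 76.9% in the pregnant heifers, and -2.7% and 0.4% in the non-pregnant ones. A negative estimate means that libraries of a heifer were no more alike than those of different heifers. At the other end stood the erythroid miR-451 at -51.5% and miR-486 at 7.2% in the pregnant heifers, against 34.4% and 19.4% in the non-pregnant ones. Whether the share differed between pregnant and non-pregnant heifers was not tested.

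**Figure D5:**
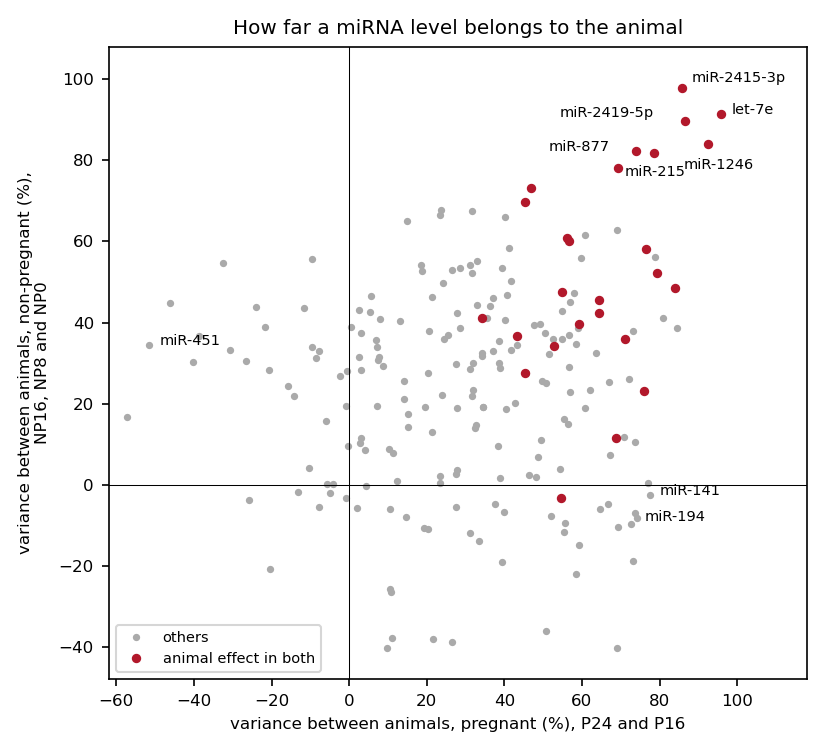
The share of variance of log2(RPMM + 1) that lies between animals for each of the 214 miRNAs, in the 10 pregnant heifers (x axis, P24 and P16) and in the 8 non-pregnant heifers (y axis, NP16, NP8 and NP0), in percent; negative estimates arise when libraries of an animal are no more alike than others. Red points are the 26 miRNAs with an animal effect in both groups, with let-7e, miR-1246, miR-2415-3p and miR-2419-5p at the top right.

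The 8-day change in pregnancy was set against an 8-day change in the cycle, NP16 against NP8, in 8 other heifers that share no library with the pregnant ones. The days of the intervals differ, as the cycle interval ends on the day on which the pregnancy interval starts. No miRNA differed between the intervals at the FDR limit (0 of 214, 0%; edgeR interaction test, smallest adjusted p = 0.670), while at an unadjusted p under 0.05 there were 14 (6.54%), of which 5 were positive (2.34%) and 9 negative (4.21%). Over the 214 miRNAs 113 interactions (52.8%) were positive, with a median of 0.01 on the log2 scale.

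The smallest p was that of miR-28, which is made from an intron of the LPP gene. It had 65.5 to 338 RPMM in P24 (median 157) and 92.7 to 196 RPMM in P16 (median 131), a log2 fold change of 0.18 (SE 0.15). In the cycle it had 64.9 to 177 RPMM in NP16 (median 109) and 77.6 to 283 RPMM in NP8 (median 182), a log2 fold change of -0.39 (SE 0.13) with 7 of 8 heifers lower on NP16. The interaction was 0.60 (SE 0.20; edgeR, p = 0.00556, adjusted p = 0.670), and with NP8 against NP0 in place of NP16 against NP8 it was -0.03.

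Erythroid miRNAs lay on the opposite side. miR-451 had a log2 fold change of -0.10 in pregnancy and of 0.60 (SE 0.19) in the cycle, with 7954 to 20337 RPMM in NP16 (median 13404) and 5839 to 14386 RPMM in NP8 (median 11453), and its interaction was -0.67 (SE 0.25; edgeR, p = 0.0124, adjusted p = 0.670). miR-144, made from the same transcript as miR-451, had -0.54 (SE 0.22), and miR-486 had -0.91 (SE 0.42). All 6 erythrocyte miRNAs had negative interactions, with a median of -0.44, and 3 of the 6 had an unadjusted p under 0.05, against 6.54% of the 214. The erythrocyte share of miRNA reads moved with them, by -1.82 percentage points in pregnancy and 9.03 in the cycle (exact permutation test over the splits of 18 heifers, p = 0.0873, adjusted p = 0.370), and its part in the other interactions was not tested. The log2 ratio of miR-451 to miR-23a moved by -0.03 in pregnancy and by 0.60 in the cycle (same permutation test, p = 0.129, adjusted p = 0.370). In the cycle this ratio was higher on NP16 in 7 of 8 heifers. Red cell breakage was not tested as a source of these interactions. The 6 erythrocyte miRNAs come from 1 cell type and are not separate observations. The rest of the 5 smallest p were miR-10b, at -0.46 (SE 0.18), and miR-126-3p, at -0.47 (SE 0.19). The interaction of miR-10b was 0.33 with NP8 against NP0.

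The 9 higher miRNAs of the array all had positive interactions, with a median of 0.49, against 52.8% positive and a median of 0.01 over the 214. Of the 9, 0 had an unadjusted p under 0.05. The array list was drawn from P24 plasma of the same animals, and P24 enters the interaction. A positive sign was thus partly built in, and the near-identical relatives among the 9 are not separate observations. miR-26a moved by 0.17 in pregnancy and by -0.37 (SE 0.19) in the cycle, and its interaction was 0.58 (SE 0.31; edgeR, p = 0.0790, adjusted p = 0.670). It had 3260 to 8475 RPMM in NP16 (median 3948) and 2907 to 19936 RPMM in NP8 (median 7678), with 3 of 8 heifers higher on NP16. The miR-26, miR-30 and let-7 shares of miRNA reads and that of the array list had the smallest p of the 26 library measures in this contrast, 0.0274 to 0.0395, and an adjusted p of 0.257 each (exact permutation tests). These shares are not separate observations, as the array list holds members of all 3 families. They are also parts of the same total, in which the erythrocyte share moved by 9.03 percentage points in the cycle. The part of that change in them was not tested. Scaling to library totals moved the median interaction to 0.22, with 22 positive and 1 negative miRNAs at an unadjusted p under 0.05 in place of 5 and 9, so that the signs of the interactions are relative to the scaling.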

How the data were processed

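Plasma miRNA was sequenced by the authors as single-end small-RNA libraries (TRIzol LS extraction, TruSeq kit). The authors mapped trimmed reads with sRNAtoolbox (version not given in the sources used here) to the bovine genome, UMD 3.1 per the submitters' processing notes, and to mature miRBase miRNAs, bovine first and then human, with 1 mismatch allowed. The counts as deposited give the reads assigned to each mature miRNA name. The deposited RPM values (RPMM here) are these counts per 1000000 mapped reads, made by the authors, so that other mapped reads stay in the divisor. miRNAs with several gene copies have 1 listed position, and close relatives may share reads.

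Computed here from the counts: a miRNA was left out when under 25 RPM in over 75% of libraries in every one of the 5 groups (the P16 library of heifer 28 not counted), which kept 214 of 870. Of these 7 passed only through P24, 1 only through P16, 199 through both and 7 through the cycle groups alone. P24 and P16 were compared in edgeR 4.0.16 under R 4.3.3 (TMM, glmQLFit, glmQLFTest, FDR limit 0.1) with the heifer as a block, since both libraries of a pair come from 1 animal. As a check, the deviations of the 2 libraries of a heifer from their group means had a correlation of -0.19 to 0.84 (median 0.41, over 0.1 in 9 of 10 heifers), and 7 of 10 P24 libraries correlated best with their own P16 library, while 4 had it as the nearest by the distance given above. RPMM was tested on log2(RPM + 1) by two-sided exact sign-flip permutation (1024 flips, smallest possible p 0.00195). Changes in pregnancy and in the cycle were compared by an edgeR interaction in 36 libraries and, for library measures, by exact permutation over the 43758 splits of 18 heifers. Shares of variance came from a one-way analysis of variance by heifer after day means were removed.

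Alternatives were DESeq2 1.42.0 and limma 3.58.1 (also with 0.1 in place of 1 as the pseudocount), other scalings and filters, a robust fit, no block, the pair of heifer 28 kept, all other libraries in 1 fit, and each heifer left out. Python 3.11.15, numpy 2.4.6, pandas 2.3.3, scipy 1.17.1 and matplotlib 3.10.9 were used, and the fits were tested on simulated data. The named miRNAs were the 15 with the smallest p, the 10 most abundant, the 5 with the smallest interaction p, a fixed set of candidates of the study, and up to 4 members of each list; those under a mean of 25 RPM on both days were named only as low, apart from hsa-miR-3168, miR-208b and miR-499. The comparison, the members and the lists were chosen with earlier results of these data known. Lists were described without a test. The list counts on log2(RPMM + 1), the heifer effect, let-7e and its neighbours, the other miRNAs named for it, and the miRNAs of heifers 24 and 29 were chosen after seeing the data. No mature sequences are shown.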

Additional observations from a re-analysis of the deposited data

Results flagged for a closer look

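In a check of 40 named miRNAs and of library measures in each group of 10, single libraries stood apart from the other 9 in 13 cases. Chance also marks about 1 in 20 groups, but the 13 cases cannot be set against that rate. Some of the miRNAs, let-7e among them, were named for their values in these data. The cases also share libraries, and shares overlap with their member miRNAs. The P24 library of heifer 24 was farthest above the others for miR-181b (2835 RPMM) and miR-181a (34000 RPMM), the leukocyte share (11.1%), the muscle share (0.152%) and the log2 ratio of miR-451 to miR-23a (3.54), and farthest below them for miR-23a (1269 RPMM). let-7e was far below the other heifers in both libraries of heifer 24, at 1.33 RPMM in P24 and 2.69 RPMM in P16. Among P16 libraries heifer 17 was highest for miR-208b (14.7 RPMM) and the muscle share (0.0313%), heifer 31 for miR-10b (36252 RPMM) and heifer 14 for miR-144 (280 RPMM), and heifer 11 was lowest for miR-6120-3p (5.10 RPMM).

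In the libraries of heifer 28, which entered only the alternative that kept that pair, some miRNAs exceeded the highest of the other 10 libraries of the same day: 7 in P24 and 5 in P16.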

How the results depend on the processing

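The count of calls between P24 and P16 was 0 under every alternative except the one with no filter on low values, which gave 1 (hsa-miR-3168, log2 fold change 1.0, adjusted p = 0.0145 in edgeR, 693 names tested). For hsa-miR-3168 the SE was 0.24 with no filter and 0.71 in the filtered paired fit (edgeR, p = 0.179). Its exact sign-flip p was 0.199, with 7 heifers higher and 3 lower on P24. The setting with no filter also gave 1 interaction call (miR-486, -0.90, adjusted p = 0.00406 in edgeR). Its SE was 0.20 there and 0.42 with the filter. Both calls thus came with a smaller SE at a like fold change, and the cause was not tested. The count at an unadjusted p under 0.05, 0 in the paired fit, was 3 without the replicate block, 2 in DESeq2, 17 with no filter, 4 with the pair of heifer 28 kept, 1 with all other libraries in the fit, and 0 to 5 when a heifer was left out, so the pairing changed no call at the FDR limit. The interaction count, 14, was 23 with library totals, 47 with no filter, 7 without the replicate block, and 5 to 23 when a heifer was left out (5 without non-pregnant heifer 22, 22 without non-pregnant heifer 16 and 23 without pregnant heifer 24). The heifer effect, 70, was 28 to 89 when a heifer was left out.

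The following values changed sign, and others moved by over 1.5 times without 1 heifer, such as miR-103 (0.00284 to 0.113). With library totals, limma or the sign-flip test, all of which lack TMM, miR-22-3p was 0.0115 to 0.0231, miR-192 0.0199 to 0.0353, miR-30d 0.0353 to 0.0473 and miR-101 0.0429 to 0.0532. With the 100 RPM filter miR-192 was 0.00458, miR-30d 0.0169 and miR-101 0.0241. miR-101 was 0.00205 with a filter on the mean, and miR-30d 0.0596 with heifer 28 kept, where the muscle share differed by -0.00104 percentage points. Leaving out a heifer gave -0.224 to 0.0701 for miR-486, -0.0884 to 0.00845 for miR-22-3p, -0.121 to 0.0337 for miR-192, -0.0384 to 0.0914 for miR-191, -0.161 to 0.0343 for miR-92a, -0.0296 to 0.0738 for miR-142-5p, -0.0632 to 0.0164 for miR-30d, -0.126 to 0.122 for miR-101, -0.0135 to 0.239 for miR-30c, -0.206 to 0.00553 for miR-451 and -0.132 to 0.0389 for miR-23a. It gave -0.93 to 2.03 percentage points for the miRNA share, -3.16 to 0.80 for the erythrocyte share, -0.00364 to 0.391 for the platelet share, and -0.25 to 0.12 for the log2 ratio of miR-451 to miR-23a. Both miR-16 forms changed sign on log2(RPMM + 1) as well, to 0.01. With NP8 against NP0 the interaction was -0.0268 for miR-28 and 0.33 for miR-10b. The causes were not tested. With 10 heifers the median half-width of the unadjusted 95% interval was 0.29 on the log2 scale. Smaller changes could mostly not be detected, and larger ones could also be missed at the FDR limit. The shallowest library, with 651408 miRNA reads, limits miRNAs under 25 RPM most.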
